A study of Equus caballus with 45 samples.

Results

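The genes described here are the equine matrix metalloproteinases (MMP), the ADAMTS enzymes (a disintegrin and metalloproteinase with thrombospondin motifs) and the tissue inhibitors of metalloproteinases (TIMP). They were taken as every row of the count tables whose symbol was MMP, ADAMTS or TIMP followed by its number, which gave 42 of 20881 genes, namely 20 MMP, 18 ADAMTS and 4 TIMP. A further 3970 rows carry an Ensembl identifier without a symbol and could not be matched. MMP3, MMP8, MMP10 and ADAMTS13 were not analysed here. By role, the 42 genes comprised 2 collagenases (MMP1 and MMP13), 2 gelatinases (MMP2 and MMP9), 1 stromelysin (MMP11), 2 matrilysins (MMP7 and MMP26), 6 membrane-type MMP (MMP14, MMP15, MMP16, MMP17, MMP24 and MMP25) and 7 other MMP. They also comprised 7 ADAMTS able to cut aggrecan or related proteoglycans (ADAMTS1, ADAMTS4, ADAMTS5, ADAMTS8, ADAMTS9, ADAMTS15 and ADAMTS20), 3 procollagen N-proteinases (ADAMTS2, ADAMTS3 and ADAMTS14), 8 other ADAMTS and the 4 inhibitors (TIMP1 to TIMP4).

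MMP and ADAMTS are zinc proteinases that are made as inactive precursors and take apart the matrix around cells. Collagenases open the triple helix of fibrillar collagen, gelatinases digest the unwound chains, and membrane-type MMP work at the cell surface, where MMP14 activates the precursor of MMP2. ADAMTS4 and ADAMTS5 are the best known aggrecanases, which release the proteoglycan that holds water in cartilage. TIMP block active MMP, and TIMP3, which is bound to the matrix, also blocks ADAMTS4 and ADAMTS5. In the joint, the inflammatory cytokines IL-1β and TNF-α are known to raise collagenase and aggrecanase transcripts in synovial cells and chondrocytes, and loss of aggrecan and collagen is the hallmark of osteoarthritis.

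Transcripts were counted in 45 RNA sequencing libraries of equine cells. Bone marrow mesenchymal stromal cells (MSC) of the 3 donors labelled 92, 99 and PC gave 12 libraries, with 1 per donor for untreated MSC, for MSC given a TLR3 agonist (poly I:C), for MSC given a STING agonist (2′3′-cGAMP) and under a label CpG, a treatment that the study's text does not describe. Synoviocytes, chondrocytes and macrophages gave 11 libraries each. In each of these joint cell types, 9 libraries came from cells given IL-1β and TNF-α together with conditioned medium of resting MSC (resting MSC-CM), of MSC activated by the TLR3 agonist (TLR-MSC-CM) or by the STING agonist (STING-MSC-CM), 1 library per MSC donor (AG1, ORC and PC). The remaining pair were cells given the cytokines alone (1 library) and cells with no addition (1 library). By the study's methods, all cells with conditioned medium thus also carried the cytokines, and no library held conditioned medium without them. The labels give no cytokine amount for any chondrocyte library, so for chondrocytes with medium this rests on those methods. By the labels, MSC had 10 ng/mL of an agonist for 2 h and joint cells had the medium for 24 h, with the cytokines at 20 ng/mL on synoviocytes and 10 ng/mL on macrophages, whereas the study's methods give higher amounts of the agonists and the same cytokine amount on every cell type. By those methods, MSC were washed after the agonist and kept in fresh medium for 24 h before lysis. The stimulated and treated joint cells were washed after the 24 h and cultured for a further 24 h in plain medium before lysis. The levels below were therefore taken after removal of the agonist, the cytokines and the conditioned medium, not during exposure. The synoviocytes were grown from the synovium of 1 horse and the macrophages from blood monocytes of 1 horse, and the chondrocytes were released from femoropatellar cartilage, expanded and re-differentiated. The 3 libraries of a joint cell condition therefore differed in the donor of the medium and not in the donor of the joint cells, and the p-values below measure that spread only. A cell type and the horse it came from cannot be told apart.

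Between 23525704 and 54103873 reads per library were assigned to genes (median 31660884), so that a count of 3, taken as the floor, was worth 0.0559 to 0.130 CPM, the unit used throughout for read counts scaled to library size. CPM values were scaled by the TMM method within the libraries of a cell type and not divided by transcript length, so they order conditions for a gene and not genes within a cell. The identity of the cells was checked with marker lists. All 14 macrophage markers had a median of at least 1 CPM in macrophages, while 10 of the 14 never reached 1 CPM in any library of the other cell types. All 11 stromal markers had a median of at least 1 CPM in synoviocytes, chondrocytes and MSC, as did 6 of the 11 in macrophages. Summed over the stromal list, macrophages held 34.2 to 107 CPM and the other cell types at least 45534 CPM. Macrophage libraries also held 213 to 375 CPM over 6 lymphocyte markers and 276 to 591 CPM over 4 neutrophil markers, against at most 4.47 and 0.662 CPM in the other cell types. Of these neutrophil markers, MPO and AZU1 never reached 1 CPM in macrophages, so that the sum came from ELANE and CSF3R. In the libraries labelled chondrocytes, 7 of 12 chondrocyte markers, COL2A1 and the link protein gene HAPLN1 among them, never reached 1 CPM. COL2A1, the gene of the main cartilage collagen, reached at most 0.383 CPM in them, and the name chondrocyte is kept from the labels. In synoviocytes and in MSC, 6 of the 12 chondrocyte markers never reached 1 CPM. The median sum over the 12 was 228 CPM in chondrocytes, 189 CPM in synoviocytes and 467 CPM in MSC. This list therefore did not set the chondrocytes apart from the synoviocytes or MSC. Of the 6 joint cell libraries without medium, the cell line field names the MSC donor ORC for 5 and PC for 1, although no medium was added.

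Synoviocytes, chondrocytes and MSC carried a wide set of these transcripts and macrophages a narrow one. A level of 1 CPM was reached in at least 1 library by 30 genes in synoviocytes, 30 in chondrocytes, 31 in MSC and 18 in macrophages. With a median of at least 100 CPM there were 12 genes in synoviocytes, 12 in chondrocytes, 9 in MSC and 7 in macrophages. The genes with medians of at least 1000 CPM were MMP1, MMP2, MMP12 and TIMP3 in synoviocytes, MMP1, MMP2, MMP12, MMP13, TIMP1 and TIMP2 in chondrocytes, MMP2 and TIMP2 in MSC, and MMP9 and TIMP1 in macrophages. At the other end, no library rose above 3 counts for 6 genes in synoviocytes, 8 in chondrocytes, 7 in MSC and 9 in macrophages. MMP7, MMP20, MMP26 and MMP27 stayed at or under that floor in all 45 libraries, and MMP26 had no read in any of them. Some further members were near the floor in most cell types. ADAMTS18 was read in macrophages only, at up to 0.217 CPM, ADAMTS8, ADAMTS19 and MMP21 reached at most 0.217, 0.322 and 0.305 CPM in any library, and TIMP4 reached at most 0.949 CPM, in an MSC library. Others lay higher in 1 cell type than in any library of the rest. MMP25 lay at 83.8 to 191 CPM in the 11 macrophage libraries and at most 0.101 CPM elsewhere, MMP16 at 13.4 to 32.8 CPM in chondrocytes and at most 8.33 CPM elsewhere, and ADAMTS20 at 1.32 to 2.75 CPM in synoviocytes and at most 1.07 CPM elsewhere. Several of the genes are neighbours. In the RefSeq gene list of the horse, which is of another assembly and was used for gene order only, MMP7, MMP20, MMP27, MMP8, MMP1, MMP3, MMP12 and MMP13 follow each other as 8 genes in a row. Of the 6 members in that row, MMP7, MMP20 and MMP27 were at the floor in every cell type, whereas MMP1, MMP12 and MMP13 were among the genes of more than 100 CPM in the chondrocytes and synoviocytes given cytokines. ADAMTS1 lies beside ADAMTS5, and ADAMTS8 beside ADAMTS15, with no gene between.

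**Figure D1:**
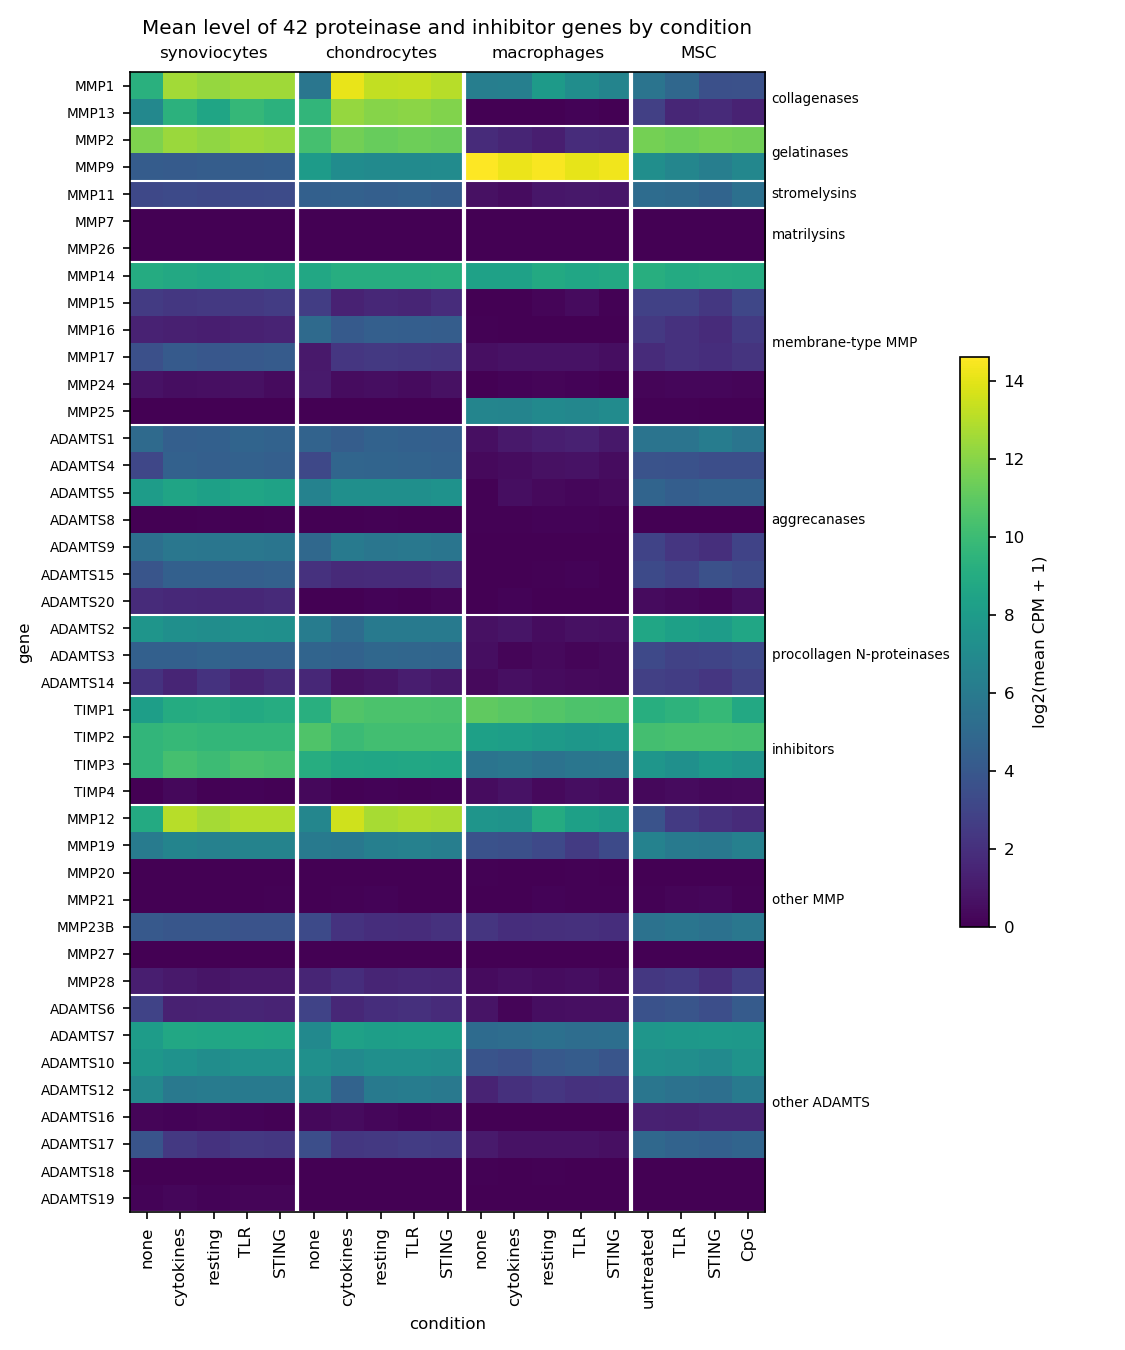
Heat map of the 42 genes (rows) in the 19 conditions (columns), with colour giving log2 of the mean CPM plus 1 over the 3 libraries of a condition, or in its only library for joint cells without medium. MMP1, MMP12 and MMP13 stand out in synoviocytes and chondrocytes, MMP9 and MMP25 in macrophages, and MMP7, MMP20, MMP26 and MMP27 are blank throughout.

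The first question was how the cytokines alone compared with no addition. In chondrocytes, MMP1, an interstitial collagenase, went from 52.4 CPM without addition to 17645 CPM with IL-1β and TNF-α, a ratio of 337-fold (95% interval 319 to 355). MMP12, the macrophage elastase, went from 102 to 11988 CPM, which is 117-fold (95% interval 113 to 122), and MMP13, a collagenase that cuts the type II collagen of cartilage readily, from 791 to 5114 CPM, which is 6.46-fold (95% interval 6.37 to 6.56). These are single libraries, so that the differences have no replicate check, and the intervals, here and below for such ratios, are exact binomial intervals that cover counting error only. In bulk RNA, fewer cells of a type and less RNA per cell cannot be told apart.

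Among the 32 members with enough reads in chondrocytes, 9 were more than 2-fold higher with the cytokines and 8 more than 2-fold lower. Over all 13154 genes compared in the same way, 6.76% were higher and 6.84% lower by that measure. The 9 higher members also included the aggrecanase ADAMTS4, at 7.95 CPM without and 25.7 CPM with cytokines (3.23-fold (95% interval 2.79 to 3.76)). ADAMTS5, the other major aggrecanase, was at 87.9 and 151 CPM (1.72-fold (95% interval 1.64 to 1.81)), below the 2-fold line. Neither aggrecanase thus showed a difference of the size seen for the collagenases. The inhibitor TIMP1 was higher too, at 587 and 1597 CPM (2.72-fold (95% interval 2.67 to 2.77)), as were MMP2 (1279.9 and 2918 CPM), MMP17 (0.999 and 4.00 CPM), ADAMTS7 (121 and 323 CPM) and ADAMTS9 (29.7 and 65.0 CPM). On the lower side stood ADAMTS12, at 96.5 CPM without and 23.9 CPM with cytokines, and ADAMTS17, at 10.6 and 4.12 CPM. With them were ADAMTS6, ADAMTS14, MMP15, MMP23B and MMP24, all at less than 10 CPM, and TIMP4, below 1 CPM. TIMP2 and TIMP3 went from 1552 to 989 CPM and from 553 to 426 CPM, and MMP9 from 262 to 137 CPM. The chondrocyte library without addition was also the one with the highest levels of the cartilage genes ACAN (97.0 CPM, against 7.09 to 21.8 with medium) and COMP (163 CPM, against 15.9 to 33.5). SOX9 and COL11A1, of the same marker list, were not highest there, and some libraries with medium lay above it (values below).

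Synoviocytes shared the leading genes. MMP12 went from 482 CPM without addition to 8505 CPM with cytokines (17.6-fold (95% interval 17.4 to 17.9)), and MMP1 from 616 to 6186 CPM (10.0-fold (95% interval 9.90 to 10.2)). MMP13 went from 112 to 682 CPM (6.09-fold (95% interval 5.88 to 6.32)) and ADAMTS4 from 7.57 to 22.1 CPM (2.92-fold (95% interval 2.51 to 3.40)). These 4 were the only ones of 31 members compared that were more than 2-fold higher, and all 4 were among the 9 of chondrocytes (100% of the synoviocyte list and 44.4% of the chondrocyte list). ADAMTS6 (6.53 and 1.4995 CPM) and ADAMTS17 (12.6 and 4.46 CPM), an enzyme tied to fibrillin microfibrils, were more than 2-fold lower, and both were also among the 8 lower members of chondrocytes (100% and 25%). Over the 13255 genes compared in synoviocytes, 4.23% were higher and 3.49% lower by more than 2-fold. ADAMTS5 (273 and 373 CPM), TIMP1 (295 and 514 CPM) and TIMP3 (772 and 1256 CPM) were on the higher side within 2-fold.

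Macrophages differed little by this comparison. MMP1 was at 74.4 CPM without and 76.7 CPM with cytokines, MMP12 at 195 and 178 CPM, and MMP9 at 25005 and 18617 CPM. Of 26 members compared, 1 (ADAMTS5) was more than 2-fold higher and 2 (ADAMTS3 and ADAMTS6) more than 2-fold lower, all below 1 CPM, against 1.90% and 1.41% of 13094 genes. None of the 16 members of at least 1 CPM passed 2-fold in either direction.

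The 9 libraries with cytokines and medium can be set beside these single libraries. All 10 cytokine-treated libraries of a cell type lay above the library without addition for 13 members in synoviocytes, 11 in chondrocytes and 2 in macrophages. All 10 lay below it for 8, 11 and 4 members. Each count rests on the 1 library without addition, and the share of all genes is not given. The counts are therefore not read as a trait of these genes. For MMP1, the lowest of the 10 chondrocyte libraries was the one with TLR-MSC-CM of donor ORC, at 2712 CPM, still far above the 52.4 CPM without addition. In macrophages, resting MSC-CM went with MMP1 values of 339, 219.9 and 181 CPM for the donors AG1, ORC and PC, and with MMP12 values of 576, 302 and 646 CPM. All 6 values lay above both macrophage libraries without medium for the same gene, a difference that was not tested because those are 1 library each.

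**Figure D2:**
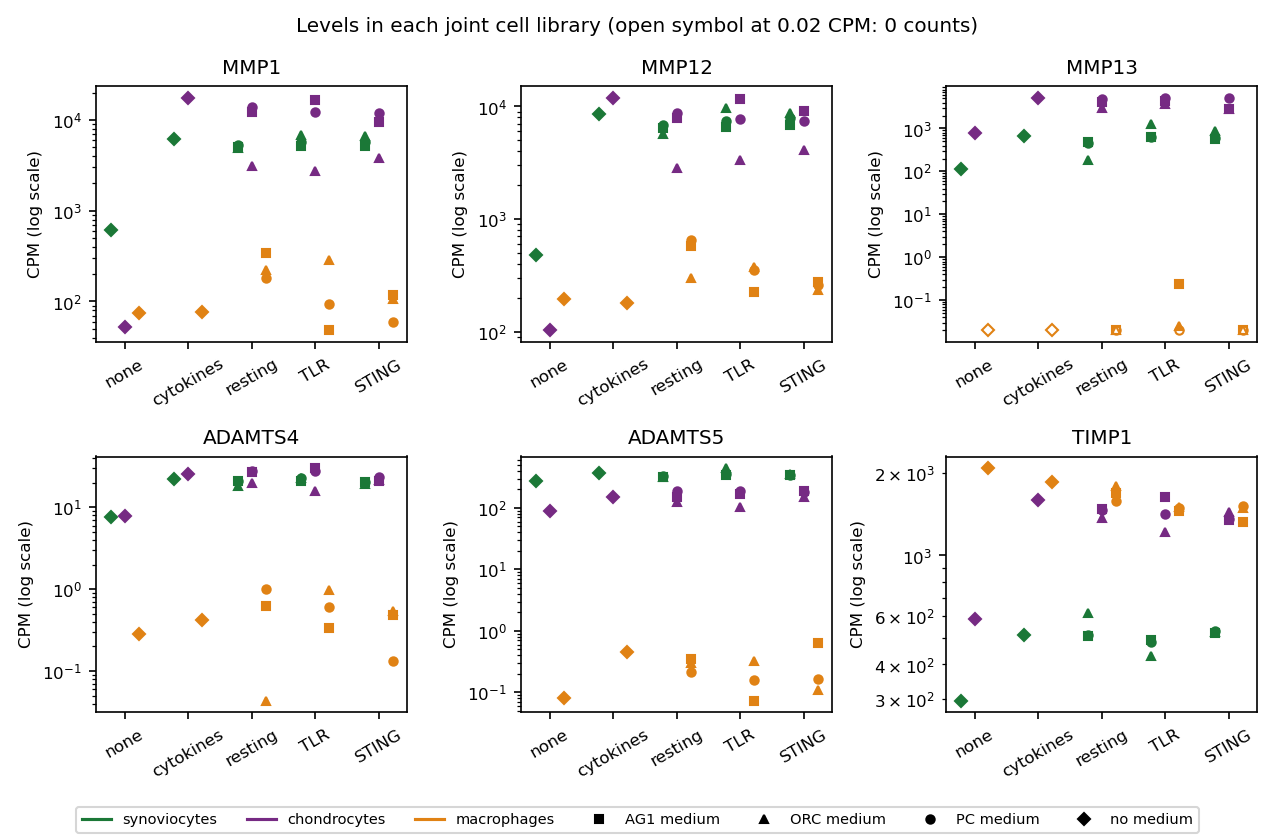
CPM on a log axis of MMP1, MMP12, MMP13, ADAMTS4, ADAMTS5 and TIMP1 in each joint cell library by condition, with colour for the cell type, the marker for the donor of the medium and open symbols at 0.02 CPM for libraries without a read. MMP1 in chondrocytes lies at 52.4 CPM without addition and between 2712 and 17645 CPM in the 10 libraries with cytokines, whereas the macrophage values of MMP1 lie between 48.1 and 339 CPM.

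The cell types were compared under the most closely matched condition, cytokines with resting MSC-CM (n = 3 libraries each), with the quasi-likelihood test of edgeR, Benjamini-Hochberg adjusted over 15599 genes. Of the 42 genes, 37 had enough reads to be tested. Chondrocytes and synoviocytes shared most of the set, and 17 of the 37 differed (7 higher and 10 lower in chondrocytes), which is 45.9% against 18.1% of all genes tested. The median log2 difference was 0.03 over the members and 0 over all genes.

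The clearest difference among the collagenases was in MMP13. It measured 4171, 3013 and 4807 CPM in chondrocytes with resting MSC-CM of AG1, ORC and PC, and 485, 179.8 and 469 CPM in synoviocytes. The groups did not overlap, and the log2 fold change was 3.38 (SE 0.39, adjusted p = 0.000627). MMP1 measured 12387, 3089 and 14088 CPM in chondrocytes and 5032, 4862 and 5349 CPM in synoviocytes. Here the chondrocyte library with ORC medium lay under all the synoviocytes and the other 2 above them, and the difference of 0.93 (SE 0.45, 95% interval −0.06 to 1.93) did not pass the test (adjusted p = 0.188). Without that ORC library it was 1.36 and passed (adjusted p = 0.00121). MMP12 showed the same split, with 7978, 2861 and 8807 CPM in chondrocytes and 6488, 5646 and 6859.6 CPM in synoviocytes and a difference of 0.03 (95% interval −0.84 to 0.89, adjusted p = 1).

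The gelatinases went opposite ways. MMP9 measured 153, 92.7 and 130.0 CPM in chondrocytes and 22.0, 18.5 and 15.4 CPM in synoviocytes (log2 fold change 2.72, SE 0.24, adjusted p = 3.77e-05). MMP2 measured 2943, 1517 and 2742 CPM in chondrocytes and 5424, 3757 and 4888 CPM in synoviocytes (−0.99, SE 0.28, adjusted p = 0.0343). Both genes separated the groups without overlap. MMP11, a stromelysin by name that is activated inside the cell, was also higher in chondrocytes (1.33, SE 0.25, adjusted p = 0.00399). Of the 6 membrane-type MMP, 2 were higher and 1 lower. MMP16 had 22.6, 16.8 and 22.6 CPM in chondrocytes and 0.932, 1.79 and 1.40 CPM in synoviocytes (3.90, SE 0.26, adjusted p = 2.97e-05), and MMP17 had 3.68, 4.77 and 4.36 and 17.8, 12.5 and 12.8 CPM (−1.77, SE 0.25, adjusted p = 0.000908). MMP14 was higher by a log2 difference of only 0.40 (SE 0.11, adjusted p = 0.0305). Among the 5 other MMP tested, MMP23B alone differed, with 3.23, 2.14 and 2.72 CPM in chondrocytes and 14.9, 14.0 and 12.7 CPM in synoviocytes (−2.37, adjusted p = 1.89e-05).

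No ADAMTS gene was called higher in chondrocytes, and 6 were called lower. ADAMTS5 measured 149, 124 and 189 CPM in chondrocytes and 313, 316 and 330.0 CPM in synoviocytes (−1.08, SE 0.15, adjusted p = 0.000666). ADAMTS15, a versican and aggrecan cutting enzyme, measured 1.60, 3.36 and 2.62 CPM and 22.6, 20.0 and 20.5 CPM (−3.10, SE 0.29, adjusted p = 5.82e-05). For both genes every synoviocyte library was above every chondrocyte library. ADAMTS20 was lower as well (−4.03, adjusted p = 0.00376), with 12 counts in all over the 3 chondrocyte libraries. ADAMTS4 measured 27.004, 19.7 and 27.6 CPM in chondrocytes and 21.2, 18.2 and 21.0 CPM in synoviocytes, a difference of 0.28 with a 95% interval of −0.43 to 0.98 that did not pass the test (adjusted p = 0.608). Of the 3 procollagen N-proteinases, ADAMTS2 (−1.20, adjusted p = 0.0151) and ADAMTS14 (−2.17, adjusted p = 0.0167) were lower. So was ADAMTS7, an enzyme that cuts the cartilage protein COMP (−0.47, adjusted p = 0.0444).

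The inhibitors differed in composition. TIMP1 measured 1475, 1375 and 1472 CPM in chondrocytes and 506, 618 and 513 CPM in synoviocytes (1.38, SE 0.12, adjusted p = 4.10e-05). TIMP3 measured 399, 334 and 442 and 1166, 781 and 1106 CPM (−1.40, SE 0.23, adjusted p = 0.00214). TIMP2 measured 1116, 1353 and 1029 and 835, 837 and 790.2 CPM (0.48, SE 0.13, adjusted p = 0.027). Thus TIMP1 and TIMP2 were higher in chondrocytes and TIMP3 was lower, with no overlap between the 3 libraries of each cell type for any of these genes. Leaving out 1 library at a time left 12 to 19 members called. ADAMTS2, ADAMTS7, ADAMTS14, MMP2, MMP14 and TIMP2 each lost the call without 1 or more of the libraries. The smallest count, 12, came on leaving out the synoviocyte library with AG1 medium or the chondrocyte libraries with AG1 or PC medium.

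**Figure D3:**
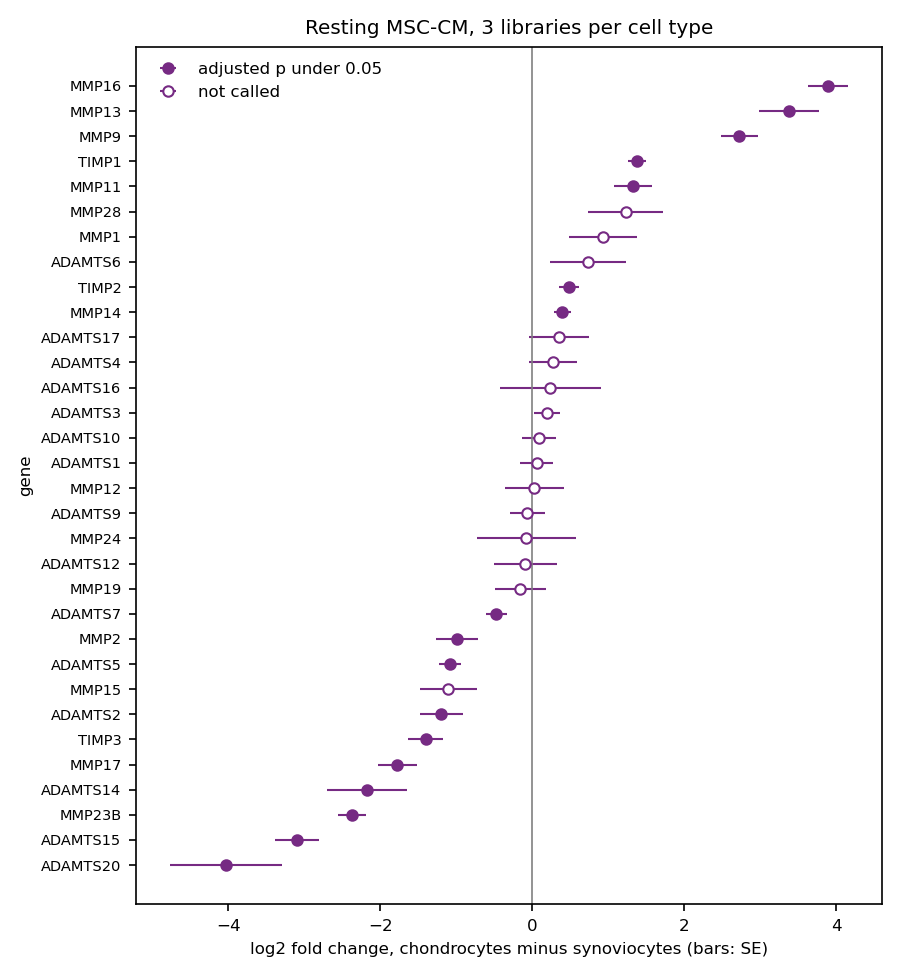
Log2 fold change of 32 members in chondrocytes minus synoviocytes with resting MSC-CM, with bars for the SE and filled symbols for the 17 genes with an adjusted p under 0.05. MMP16, MMP13 and MMP9 lie farthest to the chondrocyte side and ADAMTS20, ADAMTS15 and MMP23B farthest to the synoviocyte side.

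Macrophages had a different set. Against synoviocytes, 33 of 37 members differed (4 higher and 29 lower in macrophages), which is 89.2% against 71.6% of all genes tested, and the median log2 difference was −3.48 over the members and 0.04 over all genes. Against chondrocytes, 28 of 37 differed (2 higher and 26 lower), which is 75.7% against 71.5% of all genes, with medians of −3.18 and 0.04. Among the genes that were higher was MMP9, with 25471, 24933 and 18641 CPM in macrophages. Its log2 fold change was 10.23 (SE 0.33, adjusted p = 1.31e-09) against synoviocytes and 7.51 (SE 0.30, adjusted p = 4.49e-09) against chondrocytes. MMP25, an MMP anchored to the surface of leukocytes, had 167, 91.5 and 104 CPM in macrophages and a single read over the 3 libraries of either other cell type. The ratio of the summed counts was 10806 (95% interval 1939 to 426846) to synoviocytes and 11594 (2081 to 457978) to chondrocytes. MMP9 and MMP25 are also genes of neutrophils, whose marker list stood at 276 to 591 CPM in the macrophage libraries. Of that list MPO and AZU1 never reached 1 CPM in them, and the part of such cells in the values was not tested.

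Both collagenases were lower in macrophages. No macrophage library with resting MSC-CM held a read of MMP13, so that its level was at least 3037-fold higher in synoviocytes and at least 31820-fold higher in chondrocytes. The floor used for these bounds was 3 counts in the smallest of the macrophage libraries with resting MSC-CM. MMP1 was lower, with a log2 difference of −4.40 (SE 0.51, adjusted p = 1.91e-05) against synoviocytes and −5.34 (SE 0.54, adjusted p = 5.87e-06) against chondrocytes. MMP12, although named after macrophages, was lower in them too, at −3.68 (SE 0.43) and −3.70 (SE 0.43), at adjusted p-values of 2.08e-05 and 1.97e-05. The second gelatinase, MMP2, measured 1.85, 0.824 and 1.29 CPM in macrophages, under every other joint cell library with resting MSC-CM. Its log2 fold change was −11.78 (SE 0.45) to synoviocytes and −10.79 (SE 0.43) to chondrocytes. MMP11 was lower too (−3.32 to synoviocytes and −4.65 to chondrocytes, adjusted p = 2.35e-06 and 1.85e-07), as were MMP15, MMP16, MMP17 and MMP24 among the membrane-type MMP. MMP24, the weakest of these (adjusted p = 0.0388 and 0.0463), lost the call to synoviocytes without the AG1 or ORC synoviocyte or the ORC or PC macrophage library. Its call to chondrocytes was lost without the AG1 synoviocyte, the ORC or PC chondrocyte or the ORC or PC macrophage library, and also with no filter on counts. In the libraries with medium, MMP24 reached at most 0.769 CPM in chondrocytes and 0.247 CPM in macrophages. MMP14, in contrast, measured 471, 474 and 480.4 CPM in macrophages and did not pass the test against either (0.19, adjusted p = 0.151, and −0.21, adjusted p = 0.105). Without the chondrocyte library with ORC medium the second of these was −0.30 and passed (adjusted p = 0.0182).

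Of the 7 aggrecanases tested, 6 were lower in macrophages than in synoviocytes and 5 lower than in chondrocytes, and none was higher. ADAMTS5 was lower, at −10.14 on the log2 scale (SE 0.24, adjusted p = 2.42e-10) to synoviocytes and −9.06 (SE 0.23, adjusted p = 3.06e-10) to chondrocytes. ADAMTS4 measured 0.618, 0.0434 and 1.02 CPM in macrophages and was lower, at −5.06 and −5.34 (adjusted p = 1.38e-06 and 9.15e-07). ADAMTS1, a proteoglycan-cutting enzyme, measured 0.989, 1.13 and 2.04 CPM in macrophages, 20.7, 22.4 and 22.1 CPM in synoviocytes and 18.8, 28.5 and 22.0 CPM in chondrocytes. It was lower in macrophages, at −3.99 and −4.05 (adjusted p = 2.17e-07 and 1.93e-07), while the difference of 0.06 between chondrocytes and synoviocytes did not pass (95% interval −0.42 to 0.54, adjusted p = 0.907). ADAMTS9 had 2 counts over the 3 macrophage libraries, a summed level 2751 times lower than in synoviocytes (95% interval 761 to 22723). The procollagen N-proteinases ADAMTS2 and ADAMTS3 were lower than in synoviocytes, at −8.45 and −6.46, and lower than in chondrocytes, at −7.26 and −6.65, at adjusted p-values from 3.77e-09 to 8.38e-08. All 7 of the other ADAMTS tested were lower than in synoviocytes, where ADAMTS19 lost its call in the same fits as TIMP4, and 6 of the 7 were lower than in chondrocytes. ADAMTS7, at 49.0, 42.1 and 32.0 CPM, was with ADAMTS10 the only ADAMTS of at least 10 CPM in macrophages, and lower than in synoviocytes (−3.34) and chondrocytes (−2.87), with adjusted p-values of 1.50e-08 and 4.05e-08.

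TIMP1 was the inhibitor that macrophages held in plenty. It measured 1689, 1796 and 1584 CPM, was higher than in synoviocytes (1.59, SE 0.12, adjusted p = 7.95e-07) and did not pass the test against chondrocytes (0.21, 95% interval −0.06 to 0.48, adjusted p = 0.137). With DESeq2 the second comparison passed (0.24, adjusted p = 0.0361). TIMP2 and TIMP3 were lower in macrophages than in synoviocytes, at −1.75 (SE 0.13) and −4.53 (SE 0.26), and lower than in chondrocytes, at −2.24 (SE 0.14) and −3.13 (SE 0.25). All 4 adjusted p-values lay between 8.19e-08 and 8.87e-07. TIMP4, the inhibitor with the fewest reads, had 33 counts over the 3 macrophage libraries and 7 over the 3 synoviocyte libraries, a ratio of 4.00 (95% interval 1.74 to 10.7). It was called higher against synoviocytes (adjusted p = 0.0243) in edgeR's test, a call lost with DESeq2, with the MSC donor as a block, under the stricter filter of filterByExpr and without any 1 of the synoviocyte libraries or the AG1 or PC macrophage library, and it did not pass against chondrocytes (adjusted p = 0.0718).

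The study compared media of MSC activated through TLR3 or STING by their effect on joint cells, here set against medium of resting MSC. For these genes no comparison of media passed the test in any joint cell type. With the quasi-likelihood test of edgeR (Benjamini-Hochberg adjusted), 0 members were called in TLR-MSC-CM or STING-MSC-CM against resting MSC-CM or in STING-MSC-CM against TLR-MSC-CM, as were 0% of all genes tested. DESeq2 also called 0 members, against 0.0137% of all genes for TLR-MSC-CM in synoviocytes, 0.0332% for STING-MSC-CM and 0.219% between the activated media in macrophages, and 0% otherwise. With the donor of the medium as a block in edgeR, 0 members were called as well, although 0.531% of all genes were called in macrophages for STING-MSC-CM, 2.23% between the activated media and 0.0140% in chondrocytes for STING-MSC-CM. The comparisons of TLR-MSC-CM and STING-MSC-CM with resting MSC-CM share the resting libraries, so their values are given side by side and not as independent results. Below, the counts at an unadjusted p under 0.05 are given with the share of all genes at that level. The intervals given for media and agonists are those of the fits without a donor term. They do not use the pairing by donor, so their width includes the spread between donors.

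In synoviocytes, 7 of 35 members tested had an unadjusted p under 0.05 with TLR-MSC-CM against resting MSC-CM (10.0% of all genes), 2 with STING-MSC-CM (7.60%) and 1 between the activated media (2.02%). MMP13 measured 485, 179.8 and 469 CPM with resting MSC-CM of AG1, ORC and PC, 618, 1261 and 644 CPM with TLR-MSC-CM and 562, 863 and 616 CPM with STING-MSC-CM. It was higher with both activated media for all 3 donors, and the ORC medium gave both its lowest value, with resting MSC-CM, and its highest, with TLR-MSC-CM. The log2 fold change was 1.15 (SE 0.32, 95% interval 0.46 to 1.85, adjusted p = 0.494) with TLR-MSC-CM and 0.85 (SE 0.32, 95% interval 0.16 to 1.54, adjusted p = 0.634) with STING-MSC-CM. With the resting library of ORC left out, these became 0.82 and 0.51, and with the TLR library of ORC left out the first became 0.74.

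MMP12 and MMP1 gave smaller differences in synoviocytes. MMP12 measured 6488, 5646 and 6859.6 CPM with resting MSC-CM, 6551, 9769 and 7489.6 CPM with TLR-MSC-CM and 6835, 8799.6 and 7867 CPM with STING-MSC-CM (0.33 and 0.31 on the log2 scale, unadjusted p = 0.0278 and 0.0357 in edgeR's test). The ranges with resting and with activated medium overlapped for both, and the first value was 0.15 without the TLR library of ORC. MMP1 measured 5032, 4862 and 5349 CPM with resting MSC-CM, 5114, 6878 and 5721 CPM with TLR-MSC-CM and 5163, 6586 and 5725 CPM with STING-MSC-CM, with intervals of −0.02 to 0.45 and −0.04 to 0.43 for the log2 fold change. In both genes the highest values were those with activated medium of ORC.

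Other synoviocyte genes with an unadjusted p under 0.05 for TLR-MSC-CM in edgeR's test were TIMP3 (0.44), MMP14 (0.24), ADAMTS5 (0.24), TIMP1 (−0.22) and ADAMTS14 (−0.96). TIMP3 measured 1166, 781 and 1106 CPM with resting MSC-CM and 1178, 1739 and 1229.9 CPM with TLR-MSC-CM, and TIMP1 506, 618 and 513 CPM and 490.3, 429.7 and 484 CPM. For both inhibitors the 2 groups did not overlap, with TIMP3 above and TIMP1 below the resting values. The gene at that level between the activated media was ADAMTS9 (−0.16), next to which stood TIMP1 (0.17) and ADAMTS8, a gene near the floor. MMP19 was the third gene by p with STING-MSC-CM (0.14). Over the 22 members of at least 10 CPM, the log2 fold changes ran from −0.22 (TIMP1) to 1.15 (MMP13) with TLR-MSC-CM, from −0.16 (MMP23B) to 0.85 (MMP13) with STING-MSC-CM, and from −0.30 (MMP13) to 0.17 (TIMP1) between the activated media.

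In chondrocytes, 0 of 34 members tested had an unadjusted p under 0.05 with TLR-MSC-CM (0.559% of all genes) or with STING-MSC-CM (0.909%), and 1 did so between them (0.811%). MMP13 measured 4171, 3013 and 4807 CPM with resting MSC-CM, 4284, 3653 and 5054 CPM with TLR-MSC-CM and 2864, 2834 and 5223 CPM with STING-MSC-CM. The 3 sets of values overlapped, and the log2 fold changes were 0.11 (95% interval −0.49 to 0.72) and −0.14 (−0.74 to 0.47). MMP1 measured 16457, 2712 and 12167 CPM with TLR-MSC-CM and 9548, 3793 and 11872 CPM with STING-MSC-CM, beside the 12387, 3089 and 14088 CPM of resting MSC-CM given above. Its intervals, from the fit without a donor term, were wide, −1.52 to 1.69 for TLR-MSC-CM and −1.84 to 1.38 for STING-MSC-CM. With the donor of the medium as a block, the log2 fold changes of MMP1 were 0.02 and −0.09, and neither was called. The gene at an unadjusted p under 0.05 in edgeR's test was MMP11, lower with STING-MSC-CM than with TLR-MSC-CM for all 3 donors (−0.26, adjusted p = 1.00), at 18.2, 17.9 and 19.4 CPM against 21.1, 21.0 and 24.2 CPM. TIMP1 measured 1475, 1375 and 1472, then 1641, 1221 and 1412, then 1348, 1443 and 1363 CPM with resting, TLR-activated and STING-activated medium, and ADAMTS5 149, 124 and 189, then 168, 103 and 186, then 190.1, 153 and 184 CPM, with overlap in both. By p the leading genes, none called, were ADAMTS14 (0.67), ADAMTS17 (0.25) and MMP21, near the floor, with TLR-MSC-CM, MMP11 (−0.16), MMP23B (0.29) and again MMP21 with STING-MSC-CM, and MMP23B (0.35) and MMP15 (0.50) beside MMP11 between the activated media. Over the 21 members of at least 10 CPM the log2 fold changes ran from −0.09 (ADAMTS1) to 0.22 (MMP12) with TLR-MSC-CM and from −0.23 (MMP1) to 0.19 (ADAMTS5) with STING-MSC-CM.

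Chondrocyte libraries also differed by the donor of the medium. For 5 of the 34 members the 3 libraries with ORC medium stood apart from the 6 with AG1 or PC medium, without overlap and by more than 2-fold in the mean of log2 CPM (with 0.1 CPM added), as did 6.72% of all genes. Below the others were MMP1, at 3089, 2712 and 3793 CPM with resting, TLR-activated and STING-activated MSC of ORC against 9548 to 16457 CPM with the other media, and MMP12, at 2861, 3312 and 4068 CPM against 7492 to 11729 CPM. Above them were ADAMTS12, with 116, 131 and 93.4 CPM against 29.9 to 45.6 CPM, ADAMTS2, with 101, 104 and 96.3 CPM against 31.4 to 56.1 CPM, and ADAMTS14. MMP1 and MMP12 were thus low, and 2 of the 3 procollagen N-proteinases high, with ORC medium. The library without addition lay on the same side of the AG1 and PC media for MMP1 (52.4 CPM), ADAMTS12 (96.5 CPM) and ADAMTS2 (69.4 CPM). It lay on the opposite side for MMP9 (92.7 to 95.4 with ORC medium against 130.0 to 172 CPM). TIMP3 did likewise (334 to 373 against 399 to 479 CPM). Both genes were highest without addition, as given above. MMP2 (1517 to 1867 against 2740 to 3039 CPM) and MMP19 (104 to 122 against 44.6 to 71.2 CPM) did not overlap either, by less than 2-fold. The same held for ADAMTS1, ADAMTS3, ADAMTS10, ADAMTS15 and TIMP2, which were higher with ORC medium. It also held for ADAMTS9, MMP9, MMP14, MMP16 and TIMP3, which were lower. MMP13, ADAMTS4, ADAMTS5 and TIMP1 overlapped. The share of all genes apart by less than 2-fold is not given.

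Other genes moved with these libraries. The cartilage transcription factor gene SOX9 was at 42.9 to 70.4 CPM with ORC medium, 7.55 to 10.6 CPM with the other media and 46.8 CPM without addition. The stromal surface gene THY1 was at 196 to 247, 45.3 to 69.7 and 181 CPM in the same order, COL1A1 at 23693 to 26206, 12173 to 14028 and 24145 CPM, and COL11A1 at 417 to 533, 118 to 189 and 427 CPM. ACAN and COMP, in contrast, were far lower with every medium, that of ORC included, than without addition, as given above. The part of all these genes in the values of the proteinases was not tested. The same count gave 0 of 35 members in synoviocytes with ORC medium (0.144% of all genes) and 0 of 33 in macrophages (0.438%), and 0 for the media of AG1 and PC in chondrocytes (0.608% and 0.308%), synoviocytes (0.0411% and 0.0960%) and macrophages (1.44% and 0.319%). With the 3 chondrocyte libraries with ORC medium left out, a choice made after seeing the data, edgeR's test called 0 members and 0, 1 and 3 of 34 had an unadjusted p under 0.05 with TLR-MSC-CM (1.10% of all genes), with STING-MSC-CM (2.49%) and between them (2.94%).

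**Figure D4:**
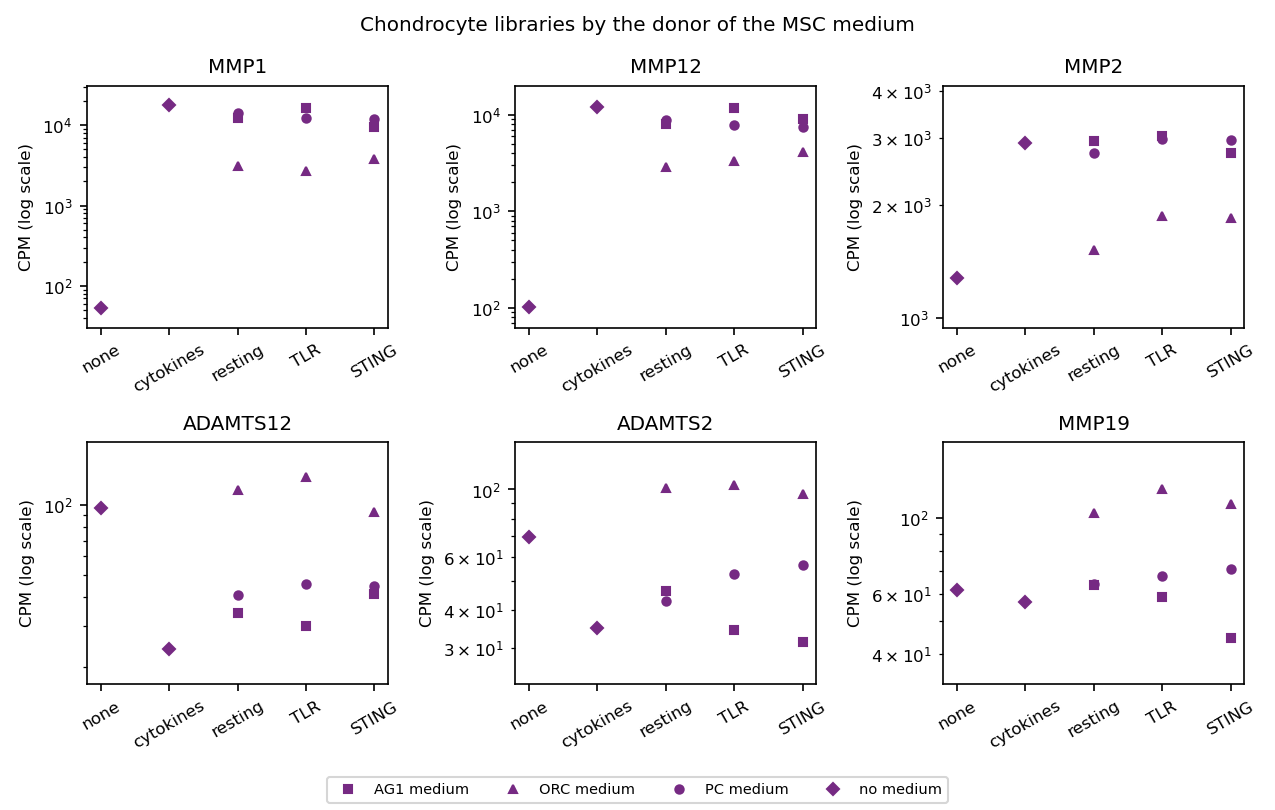
CPM on a log axis of MMP1, MMP12, MMP2, ADAMTS12, ADAMTS2 and MMP19 in the 11 chondrocyte libraries by condition, with the marker for the donor of the medium. The 3 libraries with ORC medium lie at 2712 to 3793 CPM for MMP1 against 9548 to 16457 CPM for the 6 others, and at 93.4 to 131 CPM for ADAMTS12 against 29.9 to 45.6 CPM.

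In macrophages, 1 of 33 members tested had an unadjusted p under 0.05 with TLR-MSC-CM against resting MSC-CM (2.13% of all genes), 3 with STING-MSC-CM (4.76%) and 2 between the activated media (6.60%). MMP12 measured 576, 302 and 646 CPM with resting MSC-CM, 224, 378 and 354 CPM with TLR-MSC-CM and 277, 235 and 262 CPM with STING-MSC-CM. All values with STING-MSC-CM lay below all values with resting MSC-CM, and those with TLR-MSC-CM overlapped them. The log2 fold change was −0.98 with STING-MSC-CM (SE 0.27, 95% interval −1.57 to −0.38, adjusted p = 0.907) and −0.67 with TLR-MSC-CM (SE 0.27, adjusted p = 0.999). MMP1 measured 48.1, 285 and 93.2 CPM with TLR-MSC-CM and 119, 107 and 58.9 CPM with STING-MSC-CM, beside 339, 219.9 and 181 CPM with resting MSC-CM. It was lower with STING-MSC-CM for all 3 donors (−1.38, SE 0.55, adjusted p = 0.907), and higher with TLR-MSC-CM for ORC and lower for AG1 and PC. The remaining genes at that level were MMP24 and MMP15, which lay below 1 CPM, and ADAMTS1 between the activated media (−0.76), where ADAMTS10 came next (−0.44). MMP2, at 2.46, 2.98 and 2.22 CPM with TLR-MSC-CM against 1.85, 0.824 and 1.29 CPM with resting MSC-CM, was higher for all 3 donors (0.93, 95% interval −0.00 to 1.86) and did not pass.

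MMP9 measured 25471, 24933 and 18641 CPM with resting MSC-CM, 12863, 24115 and 14346 CPM with TLR-MSC-CM and 23632, 20612 and 15288 CPM with STING-MSC-CM. The groups overlapped, while within each of the 3 donors of the medium both activated media gave a lower value than the resting one. The log2 fold changes were −0.42 (95% interval −0.99 to 0.15) and −0.21 (−0.78 to 0.36). TIMP1 measured 1452, 1507 and 1489 CPM with TLR-MSC-CM and 1330.5, 1495 and 1518 CPM with STING-MSC-CM, all 6 below the 1689, 1796 and 1584 CPM of resting MSC-CM (−0.18 and −0.22, adjusted p = 0.999 and 0.907). MMP13 was read only with TLR-MSC-CM, at 0.243, 0.0253 and 0 CPM, near the floor. Over the 10 members of at least 10 CPM the log2 fold changes ran from −0.79 (MMP1) to 0.20 (ADAMTS10) with TLR-MSC-CM and from −1.38 (MMP1) to 0.28 (TIMP3) with STING-MSC-CM.

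Whether the cell types differed in their change with activated medium was tested directly by 6 contrasts, the difference between each pair of cell types for each activated medium, over 39 members. No member passed after adjustment (0% of the 99504 tests over all genes), and 0 to 2 members per contrast had an unadjusted p under 0.05 (3.01% of all tests). For MMP13, the change with TLR-MSC-CM in chondrocytes minus that in synoviocytes was −1.05 on the log2 scale (SE 0.54, adjusted p = 1.00). For MMP12, the change with STING-MSC-CM in macrophages minus that in synoviocytes was −1.30 (SE 0.56, adjusted p = 1.00). For MMP14, the change with TLR-MSC-CM in macrophages minus that in synoviocytes was −0.51 (SE 0.19, adjusted p = 1.00). The different behaviour of a gene in 2 cell types is therefore given as values and not as a difference between them.

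MSC carried MMP2, MMP14, ADAMTS2, ADAMTS7, ADAMTS10 and the inhibitors TIMP1 to TIMP3 in all 12 libraries, at levels from 58.8 CPM (TIMP3 in untreated MSC of donor 92) to 3407 CPM (MMP2 in untreated MSC of donor PC). After the agonists, no member was called by edgeR's test (0% of all genes), by edgeR with the donor as a block (0.0134% of all genes after the STING agonist and 0% otherwise) or by DESeq2, which called 0.639% of all genes after the STING agonist, 0.350% after the TLR3 agonist and 0.00672% between them. By edgeR's test 0 of 35 had an unadjusted p under 0.05 after the TLR3 agonist (1.15% of all genes), after the STING agonist (2.10%), between the agonists (0.242%) or under CpG (0.305%). MMP9 measured 96.3, 168 and 182 CPM in untreated MSC of the donors 92, 99 and PC, 51.6, 124 and 129.7 CPM with the TLR3 agonist, 44.3, 93.7 and 88.5 CPM with the STING agonist and 54.5, 117 and 148 CPM under CpG. It was lower than in untreated MSC of the same donor in all 9 pairs. These pairs share the 1 untreated library of each donor, so they are not 9 independent results. The share of all genes lower in all 9 is not given. In the fit without a donor term, which does not use these pairs, the log2 fold change was −0.51 (SE 0.43, 95% interval −1.49 to 0.47) after the TLR3 agonist and −0.95 (SE 0.43, 95% interval −1.93 to 0.04, adjusted p = 1) after the STING agonist.

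TIMP1 measured 908, 414 and 360.2 CPM in untreated MSC, 739, 863 and 467 CPM with poly I:C and 604, 1494 and 555 CPM with 2′3′-cGAMP. It was higher after either agonist in donors 99 and PC and lower in donor 92. Its log2 fold changes were 0.34 (95% interval −0.80 to 1.47) and 0.69 (−0.44 to 1.83). MMP2 measured 2585, 3073 and 3407 CPM in untreated MSC, 2492, 2589.7 and 2884 CPM with the TLR3 agonist, and 2856, 2930.4 and 3253 CPM with the STING agonist, with overlap throughout. ADAMTS9, a proteoglycan-cutting enzyme at a few CPM, had a log2 fold change of −1.16 after the STING agonist (SE 0.51, unadjusted p = 0.051 in edgeR's test). The other genes with the smallest p were ADAMTS5 after the TLR3 agonist (−0.31), MMP11 after the STING agonist (−0.46) and under CpG (0.20), MMP12 under CpG (−2.35, and 2.87 without the untreated library of donor 92), and MMP28 between the agonists (−0.62), none of which passed.

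MSC libraries also differed by donor. In the 4 libraries of donor 92, 14 of 35 members did not overlap with the 8 libraries of the other donors and were more than 2-fold apart in the mean of log2 CPM (12.7% of all genes), with 7 above and 7 below. For donor PC there were 10 (6.24% of all genes) and for donor 99 there were 3 (4.72%). Collagenases were among them. MMP1 lay at 31.5 to 147 CPM in donor 92 and at 0 to 0.411 CPM in the others, with 147 CPM untreated, 85.7 CPM with the TLR3 agonist, 31.5 CPM with the STING agonist and 33.3 CPM under CpG. Its level in MSC thus came from 1 donor, and MMP12 followed it with 6.84 to 36.2 CPM against 0 to 0.650 CPM. MMP13 lay at 4.12 to 16.7 CPM in donor 99 and at 0 to 0.815 CPM in the others.

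Also above in donor 92 were ADAMTS15 (16.3 to 30.3 against 1.21 to 2.09 CPM) and ADAMTS6 (22.0 to 40.0 against 1.62 to 9.46 CPM), with ADAMTS1, MMP17 and MMP24. Below were ADAMTS17 (2.61 to 4.72 against 14.4 to 61.2 CPM) and MMP16 (0.0247 to 0.228 against 2.69 to 8.33 CPM), with ADAMTS3, ADAMTS16, ADAMTS20, MMP15 and TIMP3. MMP14 (270.1 to 351 against 452 to 833 CPM) was just inside 2-fold by that measure and is not counted. TIMP3 measured 227 to 383 CPM in donor 99 and 58.8 to 215 CPM in the others, and donor PC stood out by MMP19 (123 to 190 against 17.0 to 41.1 CPM). Of the 3 MSC donors sequenced only PC also gave a medium, by the labels. The study's methods count fewer horses than these labels name, so whether 92 and 99 are AG1 and ORC under other names cannot be told, and their values are not set beside a medium.

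**Figure D5:**
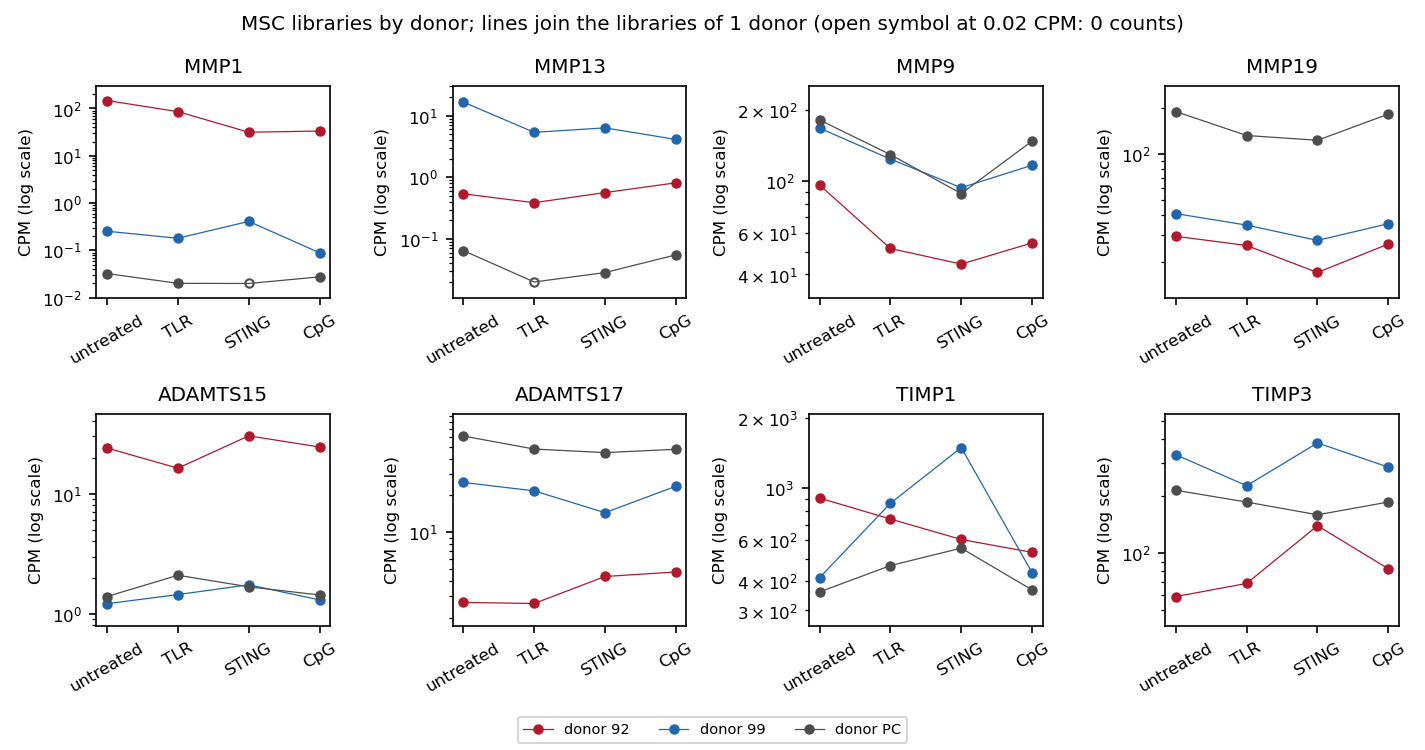
CPM on a log axis of MMP1, MMP13, MMP9, MMP19, ADAMTS15, ADAMTS17, TIMP1 and TIMP3 in the 12 MSC libraries by treatment, with lines joining the libraries of 1 donor and open symbols at 0.02 CPM for libraries without a read. MMP1 lies at 31.5 to 147 CPM in donor 92 and at most 0.411 CPM in donors 99 and PC, while MMP9 lies below the untreated value of the same donor in all 9 treated libraries.

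Genes that act with the proteinases were followed through 3 further lists. Of 18 genes written for activation and clearance at the cell surface, such as the proprotein convertase FURIN and the urokinase system, 17 were in the tables and 16 were tested between chondrocytes and synoviocytes, where 3 were higher and 2 lower in chondrocytes (18.1% of all genes were called). The urokinase receptor gene PLAUR was higher (0.94 on the log2 scale) and urokinase, PLAU, lower (−0.80). FURIN (0.54) and the collagen-cutting cysteine proteinase CTSK (0.71) were higher too, and the convertase PCSK6 (−0.80) was lower. Of 18 genes for transcription factors named for MMP and ADAMTS genes, 17 were tested and 1 differed, RUNX2, a factor of bone and hypertrophic cartilage (1.52, higher in chondrocytes). Of 12 sheddases and ADAMTS-like relatives, ADAMTSL1 was higher (1.17) and ADAMTSL3 lower (−1.28). Between macrophages and synoviocytes, where 71.6% of all genes were called, the 3 lists gave 6 higher and 7 lower of 16, 10 and 4 of 17, and 3 and 6 of 12. Between macrophages and chondrocytes (71.5% of all genes) they gave 7 and 6, 8 and 5, and 3 and 6. With the media, the agonists or CpG, no gene of the 3 lists was called by edgeR's test. The counts at an unadjusted p under 0.05 ran from 0 to 5 per list, with the highest, 5 of 11 relatives, between the activated media in macrophages, where 6.60% of all genes were at that level.

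With the cytokines alone, 6 of 16 transcription factor genes of at least 1 CPM were more than 2-fold higher in chondrocytes and 2 lower, where 5.33% and 5.61% of all genes of that level were. In synoviocytes 3 of 15 were higher and 0 lower (2.89% and 2.35% of all genes), and in macrophages 0 of 17 were either (0.533% and 0.275%). EPAS1, which encodes the hypoxia factor HIF-2α, went from 285 CPM without addition to 1403 CPM with cytokines in chondrocytes and from 427 to 1043 CPM in synoviocytes. NR4A2, an orphan nuclear receptor gene, went from 32.5 to 194 CPM and from 33.3 to 147 CPM. FOSL1, a subunit of AP-1, was the other gene past 2-fold in both cell types. The lower ones in chondrocytes were FOS, from 5.59 to 2.65 CPM, and RUNX2, from 18.6 to 9.05 CPM. These again are single libraries. Among the relatives PAPLN, which encodes papilin, went from 57.2 to 203 CPM in synoviocytes and from 25.0 to 133 CPM in chondrocytes.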

How the data were processed

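The deposited counts are whole reads per gene, not normalised. Per the labels and the study's methods, the authors used cutadapt 1.12 for trimming, STAR for alignment to EquCab3.0 and HTSeq 0.11.0 for counting, kept protein-coding genes and compared groups with DESeq2. Whether the counting used strand is not given in the sources used here, so reads of overlapping antisense genes cannot be told apart. The largest counts are rounded in the tables (41 values, 1 of them a member's, MMP9 in 1 macrophage library). No per-sample column was left unused (0).

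The media were compared by a separate fit per cell type in edgeR 4.0.16 (TMM scaling, quasi-likelihood test) in R 4.3.3, without a donor term, over genes with at least 10 counts in total. The comparison of cell types, the CpG comparison and the contrasts between cell types were fitted over the libraries with resting MSC-CM, the 12 MSC libraries and the joint cell libraries with medium. P-values were adjusted by the Benjamini-Hochberg method across every gene of a comparison and called under 0.05. Fold changes are edgeR's, with its small default prior count, and the log2 differences with cytokines use a prior count of 2. A group with no library over 3 counts was treated as at the floor. The 95% intervals of fold changes use edgeR's SE and a t quantile, and those of ratios are exact, for counting error alone, as the sources name no molecular identifiers. The fits dropped and imputed no library. The procedure was tested on simulated counts with the same spread setting for every gene and no donor effect. That test therefore does not show what size of change the comparisons of media and agonists could have found. Cytokines were compared with no addition by a 2-fold threshold, with no test.

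The members and lists were chosen with earlier results of these data known. The rule for named members took MMP1, MMP2, MMP9, MMP12, MMP13, MMP14, ADAMTS1, ADAMTS4, ADAMTS5 and the TIMP, up to 8 called members per direction and comparison or else the 3 of smallest p, and members past 2-fold with cytokines. Others were named after their values were seen, and the counts by medium or MSC donor were chosen after seeing the data. MSC donors pair libraries across conditions by the labels. The median correlation of deviations from the condition means between libraries of 1 donor was 0.0121 for synoviocytes, 0.181 for macrophages, 0.415 for chondrocytes and 0.776 for MSC. Alternatives were DESeq2 1.42.0, median-ratio size factors, edgeR's filterByExpr, no filter, the donor as a block and leaving out each library. No sequences are printed, since no genome or transcript of this build was used.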

Additional observations from a re-analysis of the deposited data

Results flagged for a closer look

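For 4 members all 10 cytokine-treated libraries lay on one side of the library without addition in one joint cell type and on the opposite side in another. The values are log2 differences between the cytokine library without medium and the library without addition. TIMP1 was at 1.44 in chondrocytes and 0.80 in synoviocytes, with all 10 libraries above, and at −0.17 in macrophages, with all 10 below. TIMP3 was at 0.70 in synoviocytes (above) and −0.38 in chondrocytes (below). ADAMTS1 was at 0.95 in macrophages (above) and −0.64 in synoviocytes (below), and ADAMTS12, which cuts COMP, at 0.84 and −0.98. The difference between cell types was not tested, since each has 1 library without addition and all 10 libraries are set against that one. The share of all genes with such opposite sides is not given.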

How the results depend on the processing

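The counts of members called between cell types kept within 1.5 times of those reported. With the MSC donor as a replicate block, 17 (chondrocytes against synoviocytes), 31 (macrophages against synoviocytes) and 29 (macrophages against chondrocytes) were called, and the media, agonists, CpG and contrasts between cell types still gave 0. With 1 library left out the counts were 12 to 19, 30 to 33 and 27 to 29, and with DESeq2 18, 31 and 30. For media, agonists and CpG no alternative called a member, and leaving out the 3 chondrocyte libraries with ORC medium, chosen after seeing the data, also gave 0. Of 52 fold changes between cell types, 743 of 780 values under alternatives kept direction and call, 26 (of 6 fold changes) lost the call, 6 gained it and 5 reversed; of 41 fold changes with media, agonists and CpG, 571 of 583 kept both and 12 reversed. The fold changes followed were those of smallest p or named in the text, without a group at the floor. They leave out the macrophage calls of MMP24, TIMP4 and ADAMTS19, which were lost in several fits. These rates thus do not hold for all members tested. The reversals were in fold changes that were not called, and their cause was not tested. Under the replicate block MMP12 in chondrocytes against synoviocytes became −0.13 (reported as 0.03). With 1 library left out, this MMP12 value ran from −0.25 to 0.38 and that of ADAMTS1 from −0.12 to 0.19. In chondrocytes MMP1 ran from −0.41 to 0.54 with TLR-MSC-CM and from −0.66 to 0.12 with STING-MSC-CM, and MMP13 from −0.0514 to 0.27 and from −0.49 to 0.0156. Under CpG, MMP11 ran from −0.00878 to 0.31 and MMP12 from −5.90 to 2.87, the last on leaving out the untreated library of donor 92. Depth limits the members near the floor of 3 counts.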
